A study of Drosophila melanogaster with 2 samples.

Results

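NFAT-eGFP peaks at one-strand promoters were taken from the larger thresholded peak list of an anti-GFP ChIP-seq experiment in Drosophila embryos. A peak belonged to the set when its summit, the base the authors' caller marked as the highest of the peak, lay within 500 bp of at least 1 annotated transcription start site (TSS) of a protein-coding gene and every such TSS lay on the same DNA strand. Of the 4899 peaks of that list on the chromosome arms, 1875 met the rule, which is 38.3% (95% Wilson interval 36.9 to 39.6). A further 878 summits had coding TSSs of both strands within 500 bp and are called both-strand peaks below. The remaining 2146 summits lay farther than 500 bp from any coding TSS. Among the peaks of that list the rule used position only. The list itself had been thresholded by the authors on the reproducibility of peaks between replicates, so which peaks could be members rests on measured values.

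The samples were whole embryos aged 0 to 24 h of the strain NFAT-GFP, which carries an insertion targeting NFAT and expresses the protein fused to eGFP. All samples carried the fusion, and the 2 samples were biological replicates 1 and 2 of this single group. Sonication broke the chromatin, and the labels give a size range of 200 to 800 without a unit. A whole embryo holds many cell types, so a peak gives no cell of origin, and a collection over 24 h mixes developmental stages. No control precipitation was analysed here, so binding of the fusion protein and signal that the antibody would give without it cannot be told apart.

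NFAT proteins are Rel-family transcription factors, and in mammals calcineurin dephosphorylates them when calcium rises, after which they enter the nucleus. The Drosophila genome holds a single NFAT gene, related to the calcium-independent mammalian NFAT5. A compact insect genome often places the starts of neighbouring genes head to head on opposite strands, and one-strand promoters are the ones where a direction can be read. Upstream means before the nearest TSS in the direction of the gene, downstream means on the transcribed side of that TSS. A summit upstream of the nearest TSS can still lie inside a gene. Fly promoters carry known elements at typical places. The DRE is read by Dref and, through its CGATA core, by BEAF-32. The M1BP element and the E-box are found at housekeeping genes, and the TATA box and the initiator position transcription.

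Stretches of 61 bases are printed for the strongest peaks and for the strongest eligible peaks with the DRE, the M1BP element, the CACTG core, TATAAA, the CTCF-like core or the longer NFAT core, because the motif counts rest on letters of this kind. They were read from the Release 6 reference (the dm6 assembly), run 5' to 3' in the direction of the gene, and overlap no annotated UTR. Peaks of 1 chromosome arm were left out of the choice. Capitals mark the motif or its reverse complement. The strongest peak of the whole list, with a signal of 2300, lay upstream of CG14100, and its summit stretch was chr3L:19590591-19590651 on the minus strand. The next strongest, with a signal of 2086, lay upstream of Ugalt, the UDP-galactose transporter, at chrX:2703854-2703914 on the minus strand. Capitals in these 2 mark CGATA or CACTG, and the Ugalt stretch held neither.
CG14100: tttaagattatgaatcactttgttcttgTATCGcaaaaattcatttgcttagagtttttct
Ugalt: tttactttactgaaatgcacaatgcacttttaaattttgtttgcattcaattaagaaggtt

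The strongest eligible members with a DRE (TATCGATA) lay at eEF1gamma, a translation elongation factor subunit (signal 419, chr3R:29220105-29220165, plus strand), and at CG7006 (signal 293, chr3R:24850559-24850619, plus strand). The M1BP element (GGTCACACT) is shown at crb, which encodes the epithelial polarity protein Crumbs (signal 156, chr3R:24294983-24295043, plus strand). It is also shown at beta-PheRS, a phenylalanyl-tRNA synthetase subunit (signal 147, chr3R:24252699-24252759, minus strand). All 4 stretches end within 35 bp upstream of the TSS.
eEF1gamma: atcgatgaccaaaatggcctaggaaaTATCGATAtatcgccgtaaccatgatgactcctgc
CG7006: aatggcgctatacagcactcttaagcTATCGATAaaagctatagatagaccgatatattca
crb: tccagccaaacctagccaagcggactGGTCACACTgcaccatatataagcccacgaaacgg
beta-PheRS: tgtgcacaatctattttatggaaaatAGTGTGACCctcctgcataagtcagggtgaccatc

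The CACTG core is shown at PAN3, a subunit of a poly(A) nuclease (signal 468, chr3L:3081421-3081481, plus strand), and at mrt (signal 431, chr3R:27281230-27281290, minus strand). TATAAA is shown at CG18549 (signal 716, chr3R:12449127-12449187, plus strand) and at Rtnl1, a reticulon of the endoplasmic reticulum (signal 613, chr2L:4997627-4997687, minus strand). These stretches begin between 147 and 306 bp upstream of the TSS, so neither TATAAA lies at the usual place of a TATA box, just upstream of the start.
PAN3: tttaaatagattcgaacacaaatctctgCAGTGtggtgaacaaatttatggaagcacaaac
mrt: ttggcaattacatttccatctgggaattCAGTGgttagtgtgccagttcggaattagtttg
CG18549: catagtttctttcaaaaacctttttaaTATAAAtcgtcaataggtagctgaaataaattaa
Rtnl1: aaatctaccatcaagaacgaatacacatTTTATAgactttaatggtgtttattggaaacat

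The CTCF-like core (AGGTGGCGC) was rare and occurred in 2 copies at dco, the casein kinase Doubletime of the circadian clock (signal 395, chr3R:31061520-31061580, minus strand). It occurred once in the stretch at Tpst, a tyrosylprotein sulfotransferase (signal 178, chrX:13563560-13563620, plus strand). The longer NFAT core (TGGAAA) is shown at CG3009 (signal 401, chrX:4666993-4667053, minus strand) and CG10165 (signal 400.5, chr2L:19528452-19528512, minus strand).
dco: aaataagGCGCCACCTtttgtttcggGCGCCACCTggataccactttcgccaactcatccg
Tpst: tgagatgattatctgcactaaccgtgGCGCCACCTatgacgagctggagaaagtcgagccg
CG3009: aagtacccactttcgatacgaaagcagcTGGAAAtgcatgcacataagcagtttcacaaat
CG10165: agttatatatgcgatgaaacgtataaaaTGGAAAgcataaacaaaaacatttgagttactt

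The lists gave peaks and not reads, so sequencing depth is unknown and no share below carries an error from depth. The thresholded lists held 2236 arm peaks for replicate 1, 3994 for replicate 2 and 3909 for the conservative list of both replicates. Intervals on shares are 95% Wilson intervals, and those on differences are 95% Newcombe intervals, or normal intervals where windows of the same peak were compared. They cover counting error only. Peaks are not replicates of a condition, and 2 samples of 1 group allow no test between conditions, so no p-value is given. The main comparisons were repeated with the peaks of each replicate alone, and most of those values are printed below. Motif shares by position class, motif differences from both-strand peaks, the comparison at fixed distances from the TSS and most gene lists were computed from the larger list only.

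Most promoter peaks were one-strand peaks, although one-strand sequence held fewer peaks per base. They made up 68.1% (66.3 to 69.8) of the 2753 promoter summits, 60.5% (57.9 to 63.0) in replicate 1 and 67.3% (65.4 to 69.1) in replicate 2. Sequence within 500 bp of coding TSSs of 1 strand came to 13.7 Mb, which is 89.1% of all promoter sequence so defined. It held 137 summits per Mb, against 524 per Mb in the 1.67 Mb with TSSs of both strands. The share depended on the TSS window, at 80.6% with 250 bp and 62.7% with 1000 bp.

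The members were spread over the arms with 338 on 2L, 433 on 2R, 377 on 3L, 418 on 3R, 308 on X, 1 on 4 and none on Y. Most windows were simple: 1514 held a single TSS position and 1829 a single coding gene. A non-coding gene started on the opposite strand within 500 bp in 80 windows (4.27%), so a one-strand promoter here is one-strand for coding genes. The summit base lay outside coding genes in 43.1% of members, in a 5' UTR in 28.5%, in an intron in 24.3%, in a coding exon in 2.83% and in a 3' UTR in 1.23%. The upstream neighbour pointed the same way as the gene in 920 members, at a median distance of 685 bp, and the opposite way in 757, at a median of 1808 bp. In 198 members the TSS lay inside another gene.

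Genes of the minus strand were named slightly more often than those of the plus strand. They were the nearest gene of 1009 members (53.8%, 51.6 to 56.1), while 50.2% of all 13968 coding genes are on that strand. The share was 55.8% (52.4 to 59.2) in replicate 1 and 54.0% (51.6 to 56.4) in replicate 2. By arm it ranged from 49.7% on X to 56.5% on 2L, leaving out the single member on 4.

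The nearest genes of the 1875 members numbered 1643, and 190 of them had 2 or more members. Genes with 3 or more numbered 28, led by mtd, Moe (which encodes the cytoskeletal linker Moesin) and Rtnl1 with 5 each. At Rtnl1 the 5 summits lay between 304 and 62 bp upstream of the nearest TSS, with signals of 96.0 to 613. BEAF-32, the gene of the insulator protein whose core motif is counted below, had 3 members, at 29 and 23 bp upstream and 394 bp downstream of a TSS, with signals of 205, 105 and 68.0. Members of 1 gene are not independent observations of that gene.

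Summits lay mostly upstream of the nearest TSS. The median position was -52 bp, with quartiles of -146.5 and 15.5, where negative values are upstream in the direction of the gene. Upstream summits numbered 1300 (69.3%, 67.2 to 71.4), and they made up 69.2% for plus-strand genes and 69.5% for minus-strand genes. Of these 1300, 62.2% lay outside coding genes, 28.8% in an intron and 6.69% in a 5' UTR of a coding gene. In replicate 1 alone 78.5% (75.6 to 81.2) lay upstream with a median of -83 bp, and in replicate 2 alone 72.8% (70.6 to 74.9) with a median of -54 bp. Windows with a single TSS position, where the nearest TSS leaves no choice, gave 69.9% (67.6 to 72.2).

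**Figure D1:**
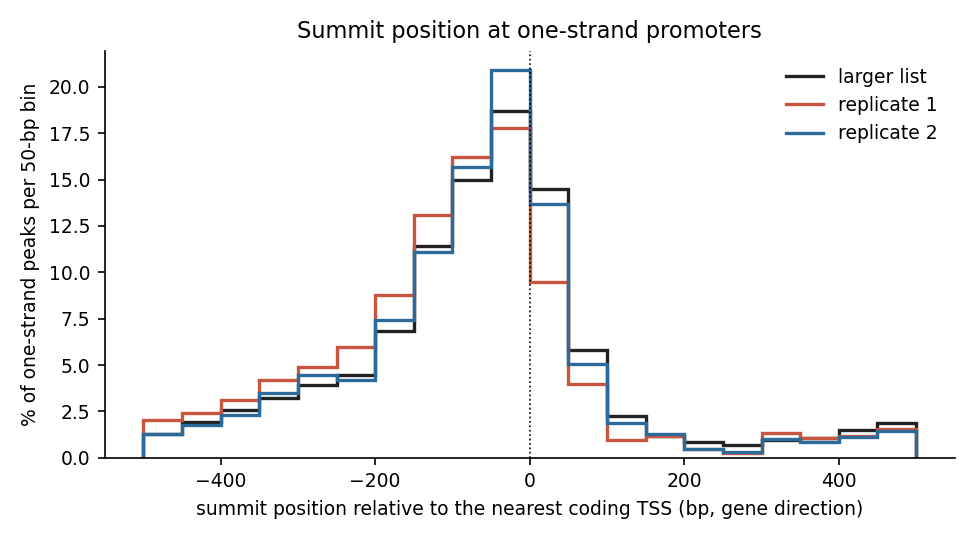
Position of one-strand summits relative to the nearest coding TSS, in 50-bp bins in the direction of the gene, as a percentage of the members of the larger list and of each replicate's thresholded list. In all 3 lists the highest bin is the one ending at the TSS and the upstream side holds more peaks than the downstream side.

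Of the 1875 summits, 631 lay 1 to 100 bp upstream, 342 lay beyond 100 and up to 200 bp upstream (100 to 200 bp upstream in what follows) and 327 lay farther upstream. On the other side, 381 lay 0 to 100 bp downstream and 194 farther downstream. Signal, the value the authors' caller gave each peak on a scale not given in the sources used here, differed between these positions. Its median was 106 over 200 bp upstream, 114 at 100 to 200 bp upstream, 80.4 at 0 to 100 bp downstream and 76.0 farther downstream. At 1 to 100 bp upstream the median lay between 80.4 and 106. Of the summits 100 to 200 bp upstream 40.6% (35.6 to 45.9) were in the strongest quartile of all peaks, against 11.0% (8.26 to 14.6) of those 0 to 100 bp downstream.

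The stronger the peak, the more often its summit lay upstream. With all peaks of the list divided into quartiles by signal, the members lay upstream in 85.5% (82.1 to 88.4), 71.6% (67.6 to 75.4), 62.4% (58.0 to 66.6) and 55.8% (51.0 to 60.5) of cases from the strongest to the weakest quartile. The median position moved from -99.5 bp to -17.5 bp. The strongest quartile exceeded the weakest by 29.7 percentage points, and by 22.5 points in replicate 1 and 25.5 points in replicate 2. Both replicates gave the same order of quartiles, with 87.5%, 83.4%, 78.0% and 65.0% in replicate 1 and 87.2%, 73.8%, 68.3% and 61.7% in replicate 2.

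**Figure D2:**
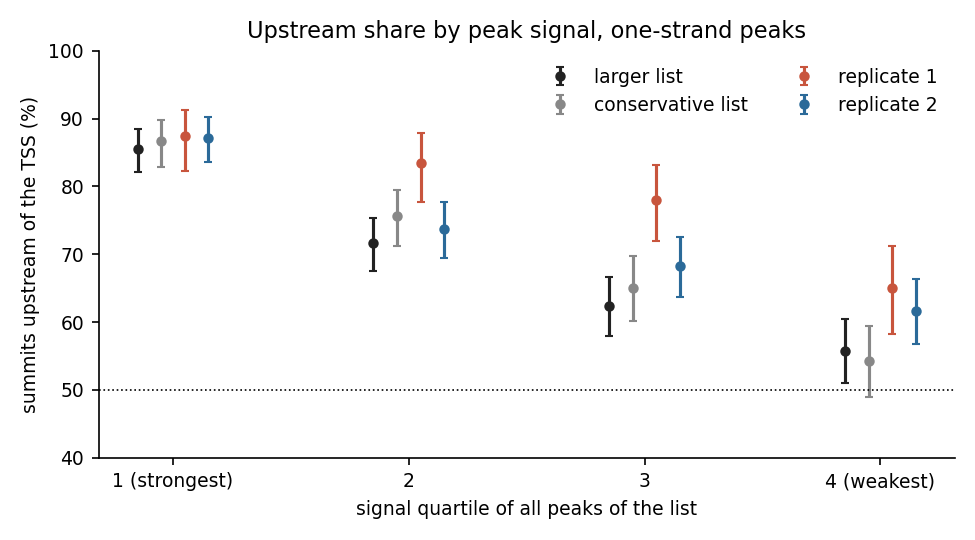
Share of one-strand summits that lay upstream of the nearest TSS, by signal quartile of the peak list, for the larger and conservative lists and each replicate; bars are 95% Wilson intervals, and the vertical axis starts at 40%. The share falls from the strongest quartile (85.5% in the larger list) to the weakest (55.8%) in every list.

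Peak width moved with this gradient. A single width of 284 bp was shared by 1585 members (84.5%), and in all of these the summit was the middle base. In the strongest quartile 41.6% of members had it, and in the next 98.0%, 99.8% and 99.8%. Members of that width lay upstream in 66.1% of cases and the others, nearly all narrower, in 86.9%. Among members of that width the share still went from 83.8% in the strongest quartile to 71.3%, 62.3% and 55.7%. The replicates placed the summits close to each other: 1766 members overlapped a ranked peak of each replicate, with a median gap of 20 bp between the 2 replicate summits, and 1605 of these (90.9%) had both on the same side of the TSS. That gap was 12 bp in the strongest quartile and 31 bp in the weakest. The part of peak width and summit placement in the gradient was not tested.

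The 20 strongest members had signals from 623 to 2300, and a thresholded peak of both replicates overlapped each of them. The summit lay upstream in 18 of them, between 32 and 356 bp from the TSS. CG14100 had a signal of 979 in replicate 1 and 1326 in replicate 2, with summits 93 and 97 bp upstream. Ugalt had 992 and 1107, with summits 33 and 32 bp upstream. These were the 2 strongest peaks of each replicate's ranked list, in opposite order.

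The next in signal were mRpL41 and eIF6. At mRpL41, a protein of the large mitochondrial ribosomal subunit, the peak (chr2R:15217597-15217922, outside coding genes) had a signal of 1613, with 618 in replicate 1 and 997 in replicate 2, and a summit 117 bp upstream. At eIF6, which keeps the large ribosomal subunit from joining early, the peak (chr2R:23850272-23850545) had a signal of 1522, with 684 and 849.5 in the replicates. Its summit lay 116 bp upstream, in an intron of a coding gene, and the eIF6 TSS itself lay inside another gene. PNPase, a mitochondrial RNA exonuclease, had 1070, with 442 and 638 in the replicates. The most distant upstream summit of the 20 was that of mtSSB, the mitochondrial single-stranded DNA-binding protein, with a signal of 623 at 356 bp upstream in the larger list and in each replicate.

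The other members of the 20 lay at genes of varied function. The peak at moody, a G protein-coupled receptor of the blood-brain barrier glia, had a signal of 996 at 160 bp upstream. The peak at amon, a prohormone convertase of peptidergic neurons, had 649 at 203 bp upstream, and that at gish, a casein kinase, 679.5 at 135 bp upstream. Sox14, an HMG-box transcription factor, had 825 at 256 bp upstream and px, a wing vein gene, 831 at 205 bp upstream. The other upstream peaks lay at CG1888 (1046), MFS10, a membrane transporter of the major facilitator family (799.8), Fkbp14, a peptidyl-prolyl isomerase (763), CG7737 (719), CG18549 (716), CG11857 (653) and Alg3, a mannosyltransferase of N-glycan assembly (633). The summits at moody, px, gish and Fkbp14 lay in an intron of a coding gene. Those at CG1888 and MFS10 lay in a 5' UTR. Only 2 of the 20 had a downstream summit in the larger list: GstE13, a glutathione S-transferase, at 63 bp with a signal of 789, and CG2811 at 13 bp with 854. The CG2811 summit was 17 bp downstream in replicate 1 and 1 bp upstream in replicate 2.

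At the edge of the rule, the members farthest from a TSS were those at shep (signal 147) and CG7557 (72.1), both 500 bp upstream. The nearest summits outside it were at CG15247 (signal 163) and myd (52.9), both downstream and 1 bp beyond the limit of 500 bp.

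One-strand peaks were weaker than both-strand peaks. Their median signal was 96.0 (quartiles 70.7 and 142), against 117 (83.4 and 182) at both-strand promoters and 81.1 (64.4 and 123) away from coding TSSs. The strongest quartile of the list held 25.4% (23.5 to 27.4) of one-strand peaks and 37.8% (34.7 to 41.1) of both-strand peaks, a difference of -12.4 percentage points (-16.2 to -8.69). In replicate 2 alone it was -10 points (-13.9 to -6.16). In replicate 1 alone it was -4.63 points (-9.49 to 0.155), an interval that includes 0. Among the peaks that did not have the common width of 284 bp the difference was 0.765 points (-7.15 to 8.37).

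**Figure D3:**
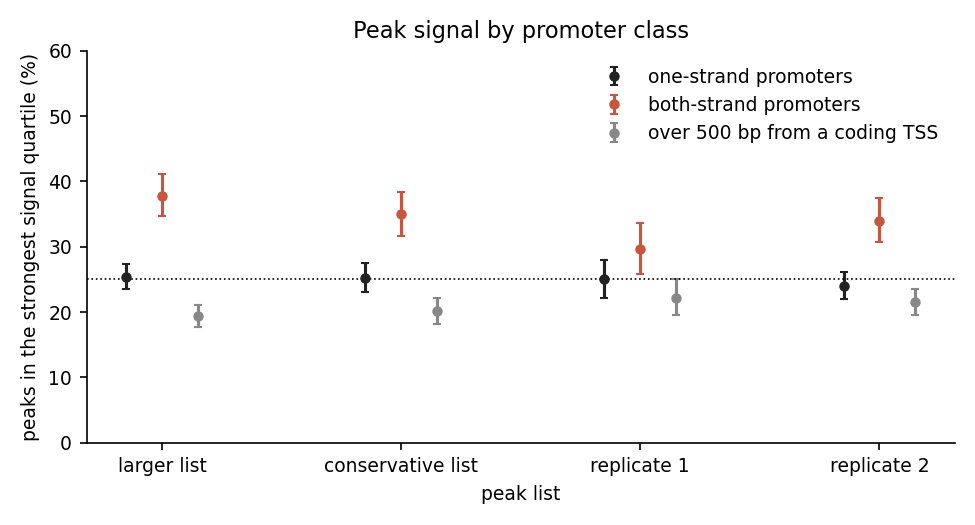
Share of peaks in the strongest signal quartile of their list, for one-strand promoters, both-strand promoters and summits over 500 bp from a coding TSS; bars are 95% Wilson intervals and the dotted line is 25%. Both-strand peaks lie above one-strand peaks in each list, with overlapping intervals in replicate 1.

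A thresholded peak of both replicates overlapped 748 members (39.9%, 37.7 to 42.1). Over all arm peaks of the list this share was 39.8%, so the members stood at the background. A further 720 members were matched in replicate 2 alone, 71 in replicate 1 alone, and 336 in neither thresholded list. At both-strand promoters 56.8% (53.5 to 60.1) were matched in both replicates, a difference of -16.9 points (-20.9 to -13.0). Within the strongest signal quartile the 2 kinds differed by -2.60 points (-5.64 to 0.670), and in the next 3 quartiles by -8.33 (-15.6 to -0.889), -2.69 (-8.62 to 2.12) and -5.27 points (-11.6 to -1.60). Members matched in both replicates lay upstream in 80.5% (77.5 to 83.2) of cases with a median signal of 159, and those matched in neither in 53.0% (47.6 to 58.2) with a median signal of 63.3. A few members had very low signals: 17 lay under 10, down to 2.23, and 26 were lower than the peak of either replicate that overlapped them.

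Genes with one-strand promoters had a peak less often than genes facing a neighbour. Of the 8827 coding genes with no opposite-strand coding start within 1000 bp, 1257 (14.2%, 13.5 to 15) had a summit within 500 bp of a TSS. Of the 3878 genes with such a start within 500 bp, 42.8% (41.2 to 44.3) had one, a difference of -28.5 points (-30.2 to -26.8). The shares were 6.58% and 27.1% in replicate 1 and 12.4% and 39.4% in replicate 2. A both-strand gene also gains from peaks that belong to its neighbour, since a single summit is counted for each of them.

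Motifs were counted in the window from 50 bp before to 50 bp after each summit and in windows of the same length centred 400 bp upstream and downstream of it, on both strands, and a difference is the summit share minus the mean of the 2 flanks. The CACTG core occurred in 31.3% (29.2 to 33.4) of members at the summit, 15.7% upstream and 19.3% downstream, a difference of 13.8 points (11.4 to 16.2). It was 13.5 points in replicate 1 and 12.1 points in replicate 2. The BEAF-32 core CGATA occurred in 23.8% (22.0 to 25.8) at the summit, a difference of 12.2 points (9.99 to 14.4). The DRE, which contains CGATA, occurred in 4.21% (3.39 to 5.22), a difference of 3.76 points (2.83 to 4.69), and the M1BP element in 1.44%, a difference of 1.25 points (0.696 to 1.81). For the M1BP element the difference was 1.80 points (0.852 to 2.75) in replicate 1 and 1.38 points (0.766 to 1.99) in replicate 2. The CTCF-like core occurred in 14 members, a difference of 0.640 points (0.236 to 1.04). In replicate 1 its difference was 0.600 points (0.00139 to 1.20) and in replicate 2 0.612 points (0.180 to 1.04). CACTG had been listed because it led an earlier hexamer count of these peaks, so its excess is not independent evidence.

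The NFAT core was as frequent beside the summits as at them. GGAAA occurred in 26.4% (24.5 to 28.4) of members at the summit, 26.1% upstream and 28.4% downstream, a difference of -0.853 points (-3.31 to 1.61). The interval was -4.40 to 2.72 in replicate 1 and -3.72 to 1.58 in replicate 2. The longer core TGGAAA, which contains it, gave 10.7% and a difference of -0.427 points (-2.14 to 1.29). That difference was -0.0600 points (-2.63 to 2.51) in replicate 1 and 0.275 points (-1.59 to 2.14) in replicate 2. The AP-1 motif TGACTCA, which is read by frequent NFAT partners in mammals, occurred in 0.8%, a difference of -0.267 points (-0.779 to 0.245).

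Base composition differed between the windows. GC content averaged 38.2% ± 10.9 (SD, n = 1875 windows) in the upstream flank, 44.7% ± 10.2 at the summit and 46.2% ± 10.1 in the downstream flank, and 40.6% ± 9.25 (n = 878 windows) at both-strand summits. Its part in the motif differences was not tested. Set beside windows of the same length centred on all 19276 coding TSS positions, the members had more CACTG (31.3% against 23.0%), a like share of CGATA (23.8% against 23.6%) and of the DRE (4.21% against 4.48%), and less of the M1BP element (1.44% against 3.64%), of TCAGT (23.3% against 31.7%) and of TATAAA (9.92% against 15.5%). Those windows sit on the TSS and the members' windows on the summit, so the places compared differ. The comparison at like distances from the TSS, given below, used only genes with no opposite-strand start within 1000 bp. There the DRE, the M1BP element and TCAGT were more frequent at member TSSs than at TSSs without a summit nearby. Against its flanks TCAGT was higher at the summit by 8.13 points (5.91 to 10.4), and by 5.04 points in replicate 1 and 5.88 points in replicate 2. CACTG occurred in 47.5% of the members with TCAGT and in 26.4% of those without it. In reverse CACTG shares letters with TCAGTG, so the excesses of TCAGT and CACTG are not separate results.

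Motif shares differed with the position of the summit relative to the TSS. The DRE occurred in 9.83% (7.74 to 12.4) of the members with a summit 1 to 100 bp upstream and in 0.585% (0.161 to 2.11) of those 100 to 200 bp upstream. CGATA occurred in 41.2% (37.4 to 45.1) and 11.1% (8.20 to 14.9) of the same classes. DRE copies lay at a median of 37 bp upstream of the TSS (-37 bp, quartiles -53.5 and -12.75). Within the summit windows DRE copies were not gathered at the summit: 31.7% of them lay within 15 bp of it, where even spacing would give 33.0%. For CACTG these values were 32.3% and 32.0%, for TCAGT 31.8% and 32.0%, and for CGATA 36.4% and 32.0%. CACTG was spread more evenly, from 25.1% to 38.7% of the 5 position classes. The initiator core TCAGT reached 36.2% (31.6 to 41.2) at summits 0 to 100 bp downstream, and TATAAA 18.7% (14.9 to 23.2) at summits 100 to 200 bp upstream. These classes were formed after the positions had been seen.

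**Figure D4:**
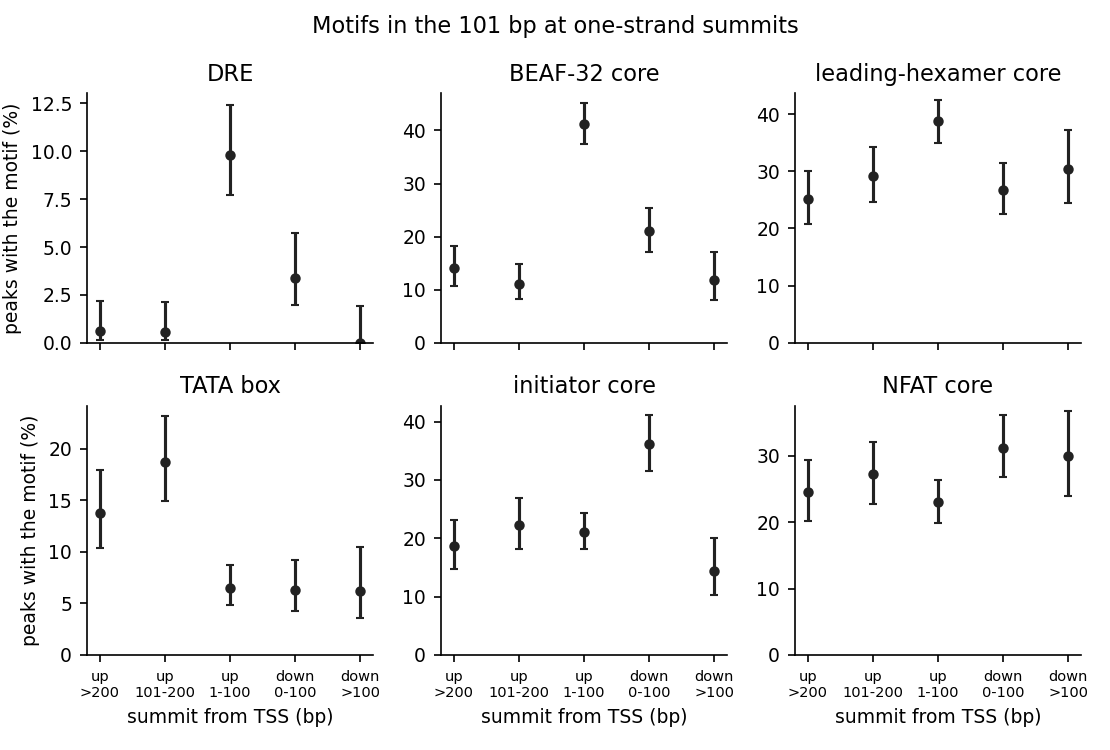
Share of one-strand peaks with each motif within 50 bp of the summit, by position of the summit relative to the TSS, with 95% Wilson intervals; each panel has its own vertical axis from 0, and the leading-hexamer core is CACTG. The DRE and the BEAF-32 core are highest 1 to 100 bp upstream (9.83% and 41.2%), and the initiator core 0 to 100 bp downstream (36.2%).

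TATAAA was less frequent at the summits than in the flanks of the larger list (a difference of -3.17 points, -4.94 to -1.41), with 9.92% at the summit, 17.8% upstream and 8.37% downstream. The sign was not stable: the difference was 0.420 points (-2.33 to 3.17) in replicate 1 and -2.17 points in replicate 2, and among members without the common width it was 7.76 points (2.43 to 13.1). In the strongest quartile 14.9% (12.0 to 18.4) of members held it, against 8.81%, 7.56% and 8.25% in the next 3.

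A direction was seen in the initiator core. Of 510 copies of TCAGT at the summits, 348 (68.2%, 64.1 to 72.1) ran with the gene, against 54.8% in the upstream and 54.4% in the downstream flank. The share was 60% (53.1 to 66.5) in replicate 1 and 64.9% (60.2 to 69.4) in replicate 2, and 78.0% (71.3 to 83.4) at summits 0 to 100 bp downstream. Among members without the common width of 284 bp it was 50.9% (38.1 to 63.6) of only 55 copies. CACTG, which in reverse shares letters with TCAGTG, ran with the gene in 47.3% (43.6 to 50.9) of 713 copies. That share was 50.9% in replicate 1 and 52.7% (48.7 to 56.6) in replicate 2, and 24.3% (16.0 to 35.2) at summits over 100 bp downstream. In the flanks it was 46.4% (41.1 to 51.8) upstream and 38.5% (33.9 to 43.4) downstream, so the low share downstream was not confined to summits. CGATA ran with the gene in 52.9% (49.4 to 56.3) of 785 copies, in 53.9% in replicate 1 and in 52.4% in replicate 2. GGAAA ran with the gene in 45% (41.0 to 49.1) of 580 copies, against 51.9% and 57.5% in the flanks. In the replicates that share was 42.8% (37.1 to 48.8) and 44.7% (40.5 to 49.0).

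Both-strand peaks held more of the housekeeping elements and also more TATAAA. The DRE occurred in 8.54% of them, so that the members stood -4.33 points (-6.52 to -2.38) from them, and CGATA in 37.7%, a difference of -13.9 points (-17.6 to -10.1). CACTG was at 31.9%, a difference of -0.584 points (-4.35 to 3.10). GAGAGAG, read by the GAGA factor, went the other way, with 3.31% of members and 0.797% of both-strand peaks, a difference of 2.51 points (1.40 to 3.51). TCAGT was also more frequent in members, by 6.4 points (3.19 to 9.45).

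The promoters themselves were compared at fixed distances from the TSS, a choice made after the peak positions were known. Among TSSs of genes with no opposite-strand start within 1000 bp, 1356 were the nearest TSS of a member and 10289 had no summit within 500 bp. In the 100 bp upstream, CACTG occurred in 28.5% (26.2 to 31) of the former and 17.5% (16.7 to 18.2) of the latter, CGATA in 28.8% and 19.6%, and GAGAGAG in 8.48% and 3.4%. Beyond 100 and up to 200 bp upstream CACTG was again more frequent at member TSSs, with 19.5% against 14.3%, whereas CGATA was less frequent, with 10.8% against 13.4% (a difference of -2.60 points, -4.29 to -0.720). CACTG had been listed because it led an earlier hexamer count of these peaks, so its differences here are not independent evidence. In the 100 bp next to the TSS the DRE occurred in 5.6% of member TSSs and 2.94% of the others (a difference of 2.67 points, 1.51 to 4.06). The M1BP element occurred there in 2.51% and 0.923% (1.58 points, 0.848 to 2.57). TCAGT on the gene's strand between -10 and 10 bp occurred in 20.1% and 15.4% (4.71 points, 2.54 to 7.03). A TATA box between -40 and -15 bp was less frequent at member TSSs, with 4.42% (3.45 to 5.65) against 8.91% (8.38 to 9.48). GGAAA was also less frequent, with 23.6% (21.4 to 25.9) against 26.7% (25.9 to 27.6). Transcription was not measured in these samples, and the second set includes genes that embryos may not use.

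Of all 13968 coding genes, 1683 (12.0%) had a member within 500 bp of a TSS, and of the genes with no opposite-strand start within 1000 bp 14.2% had one. Against this background, 33 of 92 cytoplasmic ribosomal protein genes (35.9%, 26.8 to 46.1) had a member, and 19 of the 37 among them that have no opposite-strand start nearby (51.4%). With TSS windows of 1000 bp the share of the list was 21.7%. The strongest were at RpS28b (signal 414; 147 in replicate 1 and 269 in replicate 2), RpL23A (389) and RpS29 (293), with summits 16 bp upstream, 76 bp upstream and 3 bp downstream of the gene's TSS. Over the 33 ribosomal protein genes with a member the median summit position was -21 bp. Translation factors had a member in 13 of 54, led by eIF6 and eEF1gamma (419), followed by eEF1alpha1 (216).

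Other housekeeping lists had lower shares than the ribosomal list. Of 73 mitochondrial ribosomal protein genes 3 had one (4.11%, 1.41 to 11.4), namely mRpL41, mRpL4 (176) and mRpS29 (72.6), whereas 29 had a promoter peak of any kind. The mRpS29 peak overlapped no thresholded peak of replicate 1. Only 15 of the 73 genes had no opposite-strand start within 1000 bp, and none of these 15 had a member. The part of gene arrangement in the low share was not tested. The low share depended on the TSS window: with 250 bp it was 11.0% (5.66 to 20.2), when that of all coding genes was 13.1%, and with 1000 bp it was 0%. None of the 33 aminoacyl-tRNA synthetase genes had a member (0 to 10.4%), and 9 had a promoter peak of any kind. Only 10 of these 33 genes had no opposite-strand start within 1000 bp. The list was drawn by a pattern of symbols that missed beta-PheRS, which had the member printed above. Proteasome subunits had a member in 3 of 48 (2.15 to 16.8%), respiratory chain and ATP synthase genes in 5 of 84 (2.57 to 13.2%) and vacuolar ATPase genes, led by Vha13 (182), in 5 of 33 (15.2%, 6.65 to 30.9). The intervals of these 3 lists include the 12.0% of all coding genes.

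Glycolysis genes had a member in 8 of 12 cases (66.7%, 39.1 to 86.2), the highest share of the 19 lists in the larger list with windows of 500 bp. It was not the highest with replicate 1 alone, or with TSS windows of 250 bp, where it was 50% and that of the cytoplasmic ribosomal list 51.1%. The strongest were at Gapdh2 (signal 540.5; 213 in replicate 1 and 321 in replicate 2), Pgk (290.1; 113 and 173) and Eno (259; 78.5 and 168), with summits 160, 264 and 276 bp upstream. The Eno peak overlapped no thresholded peak of replicate 1. The median summit of the 8 genes was -195.5 bp. With the peaks of replicate 1 alone the share was 25%, when that of all coding genes was 5.63%. Heat shock and stress genes had a member in 10 of 20 (50%, 29.9 to 70.1), and in 30% with replicate 1 alone. Their strongest were at Atf3, a stress-responsive bZIP factor (498), Sesn, which encodes Sestrin (494), and Hsp27, a small heat shock protein (411), all between 138 and 210 bp upstream.

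**Figure D5:**
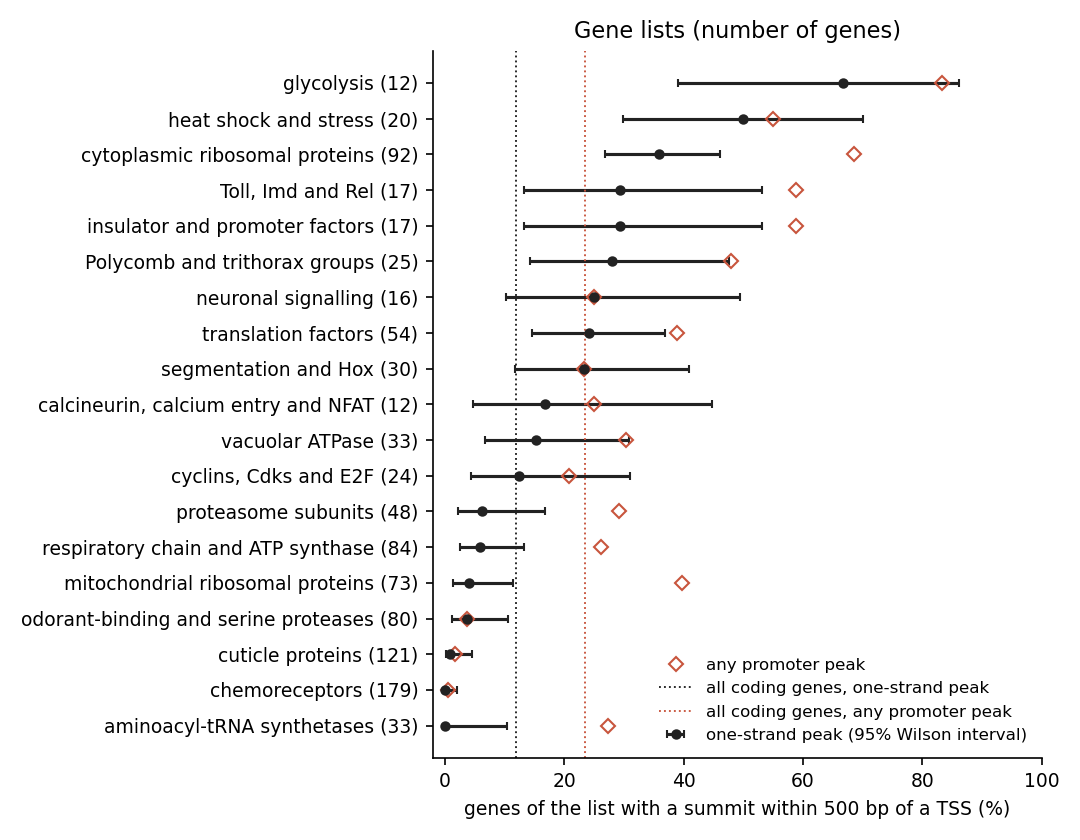
Share of genes in each of 19 lists with a one-strand peak (filled, with 95% Wilson interval) or with any promoter peak (open) within 500 bp of a TSS; dotted lines give the shares over all coding genes (12.0% and 23.4%). Glycolysis, heat shock and stress and cytoplasmic ribosomal proteins have the highest one-strand shares, and mitochondrial ribosomal proteins stand at 4.11% with 39.7% for any promoter peak.

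Regulatory genes were in between. Segmentation and Hox genes had a member in 7 of 30 (23.3%, 11.8 to 40.9), led by nkd, an inhibitor of Wingless signalling (227), bcd, the maternal anterior factor (197), and en, a segment polarity gene (77.6), and with replicate 1 alone in 6.67%, when that of all coding genes was 5.63%. In the conservative list the shares were 10% and 9.77%. Insulator and promoter factors had one in 5 of 17, led by Trl, the GAGA factor (308), BEAF-32 (205) and CTCF (118). Polycomb and trithorax genes had one in 7 of 25, led by Su(z)2 (172), kis (102) and ph-d (86.2). The Toll, Imd and Rel list had 5 of 17, led by Myd88 (243), cact, the inhibitor of Dorsal (211), and Tak1 (206). Neuronal signalling genes had 4 of 16, led by elav (412), Nrx-1 (124) and Syt1 (66.7), and cyclins, Cdks and E2F 3 of 24, namely Dp (325), CycE (111) and CycB (53.3). Of these 6 lists, only the Toll, Imd and Rel list, the insulator list and the Polycomb and trithorax list had 95% intervals that began above 12.0%. The peaks at en and CycB overlapped no thresholded peak of replicate 1, and that at Syt1 none of replicate 2.

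Of 12 calcineurin, calcium entry and NFAT genes 2 had a member (16.7%, 4.70 to 44.8), an interval that includes the 12.0% of all coding genes. At NFAT itself the peak (chrX:13642042-13642325, signal 99.3) had its summit 9 bp downstream of a TSS, overlapped a replicate 2 peak with a signal of 81.3 and overlapped no ranked peak of replicate 1. At Cam, the calmodulin gene, the signal was 78.5, and the peak overlapped no thresholded peak of replicate 1. Chemoreceptor, cuticle protein, odorant-binding protein and serine protease genes had few members, with none of 179 chemoreceptor genes (0 to 2.10%), 1 of 121 cuticle protein genes (TwdlN, 61.8) and 3 of 80 odorant-binding protein and serine protease genes (Obp99b, 231, Obp28a, 60.5, and Obp69a, 39.4). The peaks at TwdlN, Obp28a and Obp69a overlapped no thresholded peak of either replicate.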

How the data were processed

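Anti-GFP ChIP-seq peaks of whole embryos were analysed from the lists the authors deposited: the larger and conservative thresholded lists of both replicates together, and the thresholded and ranked lists of each replicate. Per the deposited file descriptions the lists are on dm6, and the thresholded ones were limited by irreproducible discovery rate (IDR). Aligner, caller and versions: not given in the sources used here. Signal, a deposited value per peak whose scale no source gives, served for ranks and description inside each list. Sequencing depth is unknown. Peaks on arms 2L to Y were used, which left out 25 of 4924 peaks of the larger list. TSSs of all transcripts of protein-coding genes came from Ensembl release 115 (BDGP 6.54), and sequence from Release 6, the same assembly as dm6. A summit was assigned to its nearest TSS. Replicate support counted overlaps of at least 1 bp. For each member the strongest overlapping ranked peak gave the replicate's signal and summit. Shares carry 95% Wilson intervals and differences Newcombe or paired normal intervals, and nothing was adjusted because no test was run. The 18 motifs were matched exactly on both strands. The 19 gene lists were matched by symbol, of which 6 symbols matched through synonyms and 1 did not match. Genes were named by rule: the nearest gene of the 20 strongest members, up to 3 per list by signal, up to 2 members per printed motif off arm 2R and outside UTRs, and the 2 members and 2 other summits nearest the 500 bp limit. The stretches of the 2 strongest members, the genes with several members and beta-PheRS in the list of synthetases were named after their values were seen. The members, lists and motifs were chosen with earlier results of these data known. Splits by signal quartile, position class and peak width, and the comparison at fixed distances from the TSS, were chosen after seeing the data. Tools were SciPy 1.17.1, pandas 2.3.3, NumPy 2.4.6 and matplotlib 3.10.9 under Python 3.11.15, and the scripts were tested on simulated summits and windows.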

Additional observations from a re-analysis of the deposited data

How the results depend on the processing

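No paired analysis was possible because the 2 replicates belong to 1 group and no groups were compared. Depth is unknown, so weak members cannot be separated from peaks missed in a replicate for lack of reads. The results named in the following paragraphs were recomputed, where the alternative applied, from the peaks of 1 replicate alone, from the conservative list, with other TSS windows, from the stronger 50% of peaks and, an alternative chosen after seeing the data, without the peaks of 284 bp, which keeps mostly strong peaks. The cause of the changes below was not tested.

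With 1 replicate alone, values ranged from 60.5% to 67.3% for the one-strand share, from 72.8% to 78.5% for the upstream share, from -83 to -54 bp for the median position and from 22.5 to 25.5 points for the strongest minus the weakest quartile. The signal difference ranged from -10 to -4.63 points and the gene difference from -27.0 to -20.5 points. Motif differences ranged from 2.70 to 3.98 points (DRE), 11.9 to 14.8 (CGATA), 12.1 to 13.5 (CACTG), -2.17 to 0.420 (TATAAA, whose sign turned) and -1.07 to -0.840 (GGAAA), and the share of TCAGT along the gene from 60% to 64.9%. Genes with a member ranged from 26.1% to 41.3% (ribosomal), 25% to 66.7% (glycolysis), 30% to 50% (heat shock), 2.74% to 4.11% (mitochondrial ribosomal), 6.67% to 23.3% (segmentation and Hox) and 5.63% to 10.7% (all coding genes). Opposite-strand non-coding starts ranged from 4.47% to 5.04%.

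With TSS windows of 250 bp the one-strand share was 80.6%, the DRE difference 4.68 points, CGATA 16.4, CACTG 15 and GGAAA -0.130, the signal difference -16.7 and the gene difference -23.0 points. Ribosomal genes stood at 51.1%, mitochondrial ribosomal genes at 11.0% and non-coding starts at 1.98%. With 1000 bp these were 62.7% for the one-strand share, 2.42 points for the DRE, 9.11 for CGATA, -1.28 for TATAAA, -1.73 for GGAAA, 21.7% for ribosomal genes, 0% for mitochondrial ribosomal genes and 8.24% for non-coding starts.

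In the stronger 50% of peaks the one-strand share was 62.5%, the upstream share 78.3%, the median -73 bp and the quartile difference 21.5 points. CGATA stood at 14.3 points, TATAAA at -0.912, GGAAA at 0.203 and TCAGT along the gene at 59.8%. The signal difference was -6.24 points, support in both replicates 71.1% and the gene difference -22.3 points. Gene shares were 35.0% for heat shock, 2.74% for mitochondrial ribosomal, 6.67% for segmentation and Hox and 6.82% for all coding genes.

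Without the peaks of 284 bp the one-strand share was 58.9%, the upstream share 86.9%, the median -121 bp, the quartile difference 15.1 points, support 95.9% and the gene difference -8.13 points. The signal difference turned to 0.765 points and TATAAA to 7.76 points. CACTG stood at 8.79 points, GGAAA at 3.28 and TCAGT along the gene at 50.9%. Gene shares were 16.3% for ribosomal, 33.3% for glycolysis, 25% for heat shock, 1.37% for mitochondrial ribosomal, 3.33% for segmentation and Hox and 2.08% for all coding genes, and non-coding starts 3.45%.

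In the conservative list CACTG stood at 12.2 points, GGAAA at -0.672, support at 50%, the quartile difference at 32.4 points and segmentation and Hox at 10%. Windows of 100 bp on either side gave 5.44 points for the DRE, 18.2 for CACTG, -0.693 for TATAAA and -2.05 for GGAAA, and flanks 600 bp away -0.453 for GGAAA. Of the 20 strongest members, CG2811 changed side, with a summit at -1 bp without replicate 1 and 17 bp without replicate 2. In all, 72 of the recomputed values of the main results differed from those reported by less than the spread between the replicates. A further 77 differed by at least that much, and 3 changed sign from a reported value whose interval kept to a single sign. GGAAA, whose reported interval covered both signs, was counted among the 77 where it turned to 0.203 and 3.28 points. For replicate support its interval took the place of the spread. Some of these values are printed above as ends of a range. The spread came from the single-replicate values, which were themselves among the values judged.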
